A study of Mus musculus with 24 samples.

Results

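Embryonic bodies (EB) are the cell aggregates that differentiating mouse embryonic stem cells form in culture. Here they were set against whole hearts of mouse embryos at E17.5, shortly before birth. The comparison takes the 2 EB arrays and the 2 E17.5 heart arrays of a series of 12 arrays, chosen by their labels and not by any measured value. The EB were collected at day 7 of a differentiation toward cardiomyocytes in a serum-containing medium, and the hearts were dissected whole. No stem cell line, strain, sex, genetic change or drug is given in the labels for either group. The labels also do not say whether the 2 samples of a group came from separate cultures or litters. The p-values rest on the spread within groups, taken over all 6 groups of the series and not over these 2 alone. That spread may be technical. Total RNA was depleted of ribosomal RNA, amplified as cDNA and hybridised to Affymetrix mouse gene arrays. Each sample was given as log2 signals of genes and as log2 signals of single probe sets, which cover parts of exons. All values below are on this log2 scale, where a difference of 1 is a 2-fold difference, and all differences are EB minus E17.5 heart.

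An embryonic body at this stage is known to pass through steps of the early embryo. Cells leave the pluripotent state kept by Pou5f1, Nanog and Sox2, form an epithelium held together by E-cadherin, and then give rise to mesoderm, endoderm and ectoderm, from which beating heart muscle appears later. A heart at E17.5 has working muscle with sarcomeres, calcium stores and dense mitochondria, together with fibroblasts, endothelium, epicardium, smooth muscle, macrophages and blood. In whole tissue or whole aggregates, fewer cells of a type and less RNA per cell cannot be told apart.

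Of 19920 genes tested with limma, 3120 were higher in EB than in E17.5 hearts, which is 15.7% of the genes tested, and 2329 were lower, which is 11.7%. Calls were made at an adjusted p under 0.05 (Benjamini-Hochberg, over all genes tested). Without E17.5 replicate 2 the count of higher genes was 1844. The median difference of all genes was 0.006. Large differences were mostly toward lower signal in EB: 217 called genes were lower by at least 3, against 61 that were higher by at least 3, and 45 were lower by at least 5, against 5 that were higher by as much. Array medians ran between 5.67 and 5.76. The EB arrays correlated at r = 0.983, the E17.5 arrays at r = 0.992, and arrays of different groups at 0.907 to 0.914, all across genes, and genes are not independent replicates. The EB arrays were less alike than the heart arrays, with 548 genes more than 1 apart between them, against 49 between the E17.5 arrays.

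The labelled identities were compared with marker lists. All 12 measured cardiomyocyte markers were lower in EB, with a median difference of -6.48. The median signal of that list was 5.40 and 5.31 in the EB arrays, against 12.52 in each E17.5 array. Of the 8 pluripotent cell markers 7 were higher in EB (median difference 3.43), and of the 9 simple epithelium markers all 9 were higher (4.59). The markers of the other cell types of a heart were lower in EB: 10 of 10 for endothelium, 8 of 9 for fibroblasts, 6 of 7 for epicardium, 9 of 10 for macrophages and 5 of 7 for smooth muscle. Without EB replicate 1 the endothelium count was 6, and without E17.5 replicate 2 the smooth muscle count was 3. On these arrays the day 7 EB carried markers of pluripotent and epithelial cells, and the median of the heart muscle markers lay below the array medians.

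**Figure D1:**
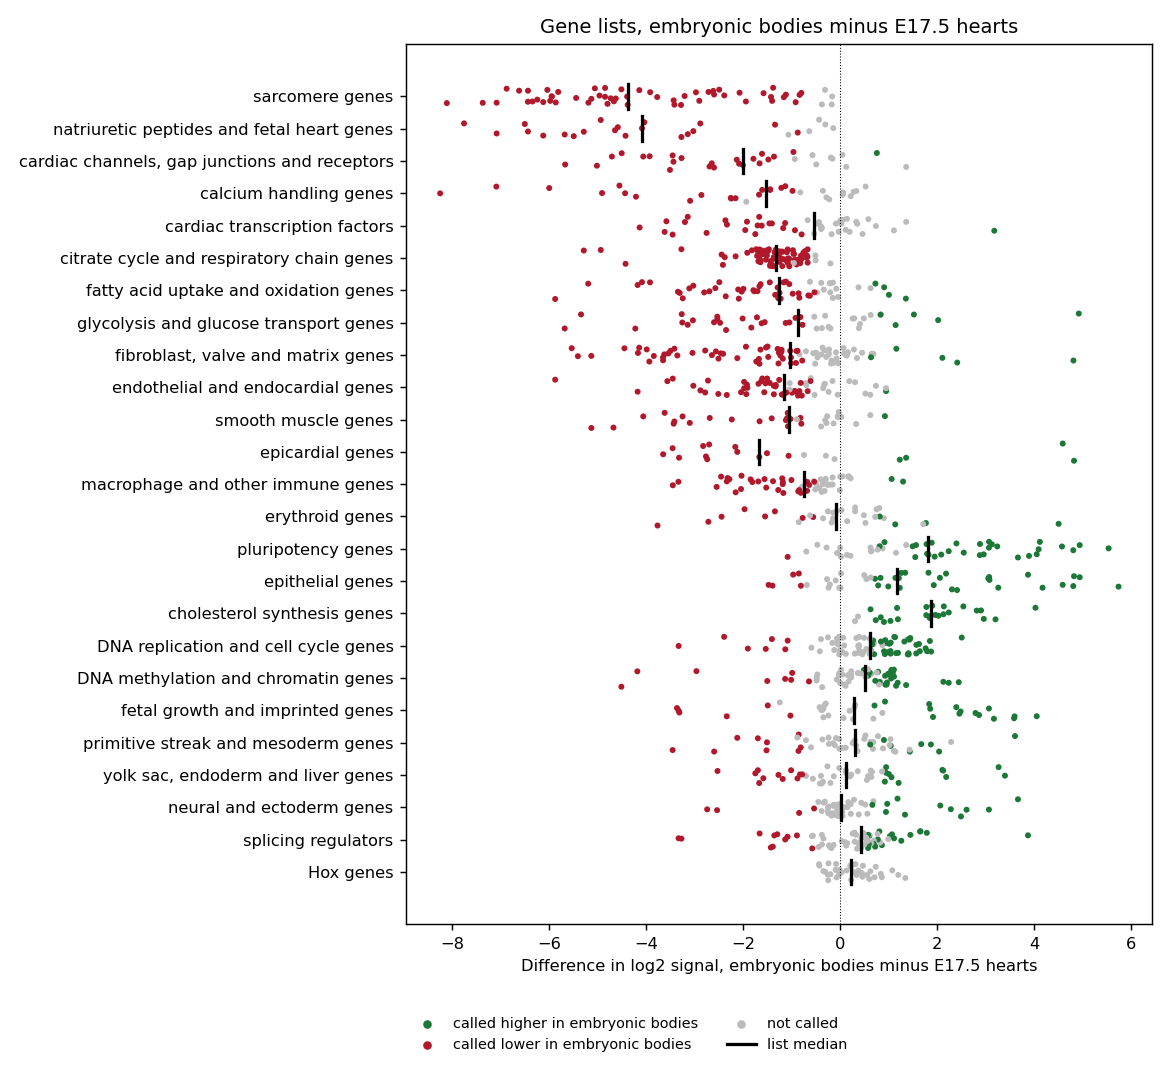
Difference in log2 signal, EB minus E17.5 hearts, for each measured gene of 25 gene lists (points, spread vertically for legibility), with the list median as a black bar. Sarcomere genes lie furthest to the left with a median of -4.38, cholesterol synthesis genes furthest to the right with a median of 1.87, and Hox genes have no called gene at all.

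Heart muscle genes made up most of the largest differences. Of the 15 largest falls in EB, which ran from -8.25 to -6.04, all but Pln, Nppa, Casq2 and Ckm are on the list of sarcomere genes. Of 59 measured sarcomere genes 55 were lower in EB, with a median difference of -4.38. Myl2, the ventricular regulatory myosin light chain, had 4.75 and 4.93 in EB, against 12.98 and 12.92 in E17.5 hearts (difference -8.11 ± 0.20, standard error of the fit, adjusted p = 3.63e-10). Myh6, the alpha myosin heavy chain, had 5.26 and 5.27 in EB, against 12.33 and 11.95 in hearts. Actn2, the alpha-actinin of the sarcomeric Z-disc, had 5.16 and 5.18 in EB and 12.26 and 12.24 in hearts. These genes were picked for large differences without overlap, so that the distance between their groups follows from the choice. Their arrays within a group lay close together. Ttn, the titin spring of the sarcomere, differed by -6.24 ± 0.32, and Mybpc3, the cardiac myosin-binding protein C, by -6.62 ± 0.22.

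For some sarcomere genes the EB arrays differed from each other. Actc1, cardiac alpha-actin, had 6.90 in EB replicate 1 and 8.61 in EB replicate 2, against 13.73 in both E17.5 arrays. Myh7, the beta myosin heavy chain, had 6.92 and 9.07 in EB, against 12.97 and 12.93 in hearts. Tnnt2, cardiac troponin T, had 7.25 and 7.66 in EB, against 13.28 and 13.27. In each of the 3 genes EB replicate 2 was the higher one, and both EB arrays stayed well below both heart arrays. Across the 59 sarcomere genes, EB replicate 2 exceeded replicate 1 by more than 1 for 4 genes, and the opposite held for 1. The atrial light chains Myl4 and Myl7 differed by -6.04 ± 1.09 and -6.34 ± 1.22. These errors also take in the adult heart arrays of the series, where Myl4 had 7.01 and 12.28 and Myl7 had 5.42 and 11.27. The 4 sarcomere genes that did not pass the test were Actn3, Myom3, Neb and Trim54, with differences of -0.17, -0.16, -0.38 and -0.31.

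**Figure D2:**
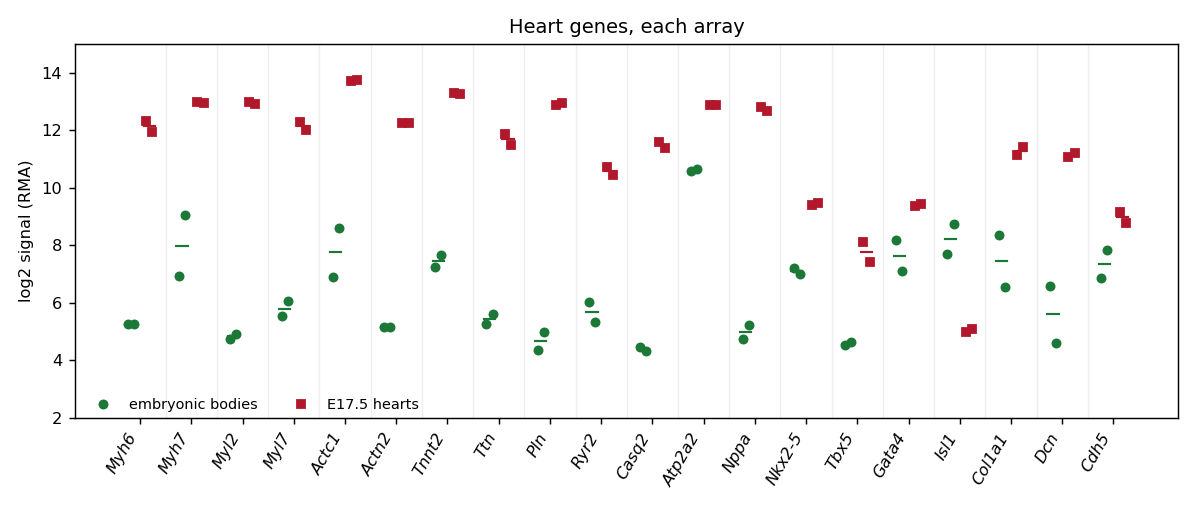
log2 signal of 20 heart genes in each array, EB as circles on the left of each gene and E17.5 hearts as squares on the right, with group means as bars. The EB signals of Myl2, Myh6, Actn2 and Casq2 lie between 4.33 and 5.27, while Isl1 is the one gene shown that is higher in EB.

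Some actin, actinin, tropomyosin and myosin genes of non-muscle cells were higher in EB and others did not pass the test. Among 91 measured genes of isoform pairs, 11 were higher in EB and 51 lower, with a median of -0.98. The higher ones are 12.1% of the list, beside 15.7% of all genes. Actn1, a non-muscle alpha-actinin, had 9.77 and 9.42 in EB and 8.21 and 8.32 in hearts (1.33 ± 0.19, adjusted p = 0.000269), the opposite of Actn2. Tpm3 and Tpm4, tropomyosins of the non-muscle cytoskeleton, were higher by 0.95 and 0.72, while Tpm1 and Tpm2, the striated and smooth muscle tropomyosin genes, were lower by -0.80 and -1.12. Cytoplasmic actin Actb was higher by 0.65 and non-muscle myosin Myh9 by 0.75, while the skeletal and smooth muscle actins Acta1 and Acta2 differed by -1.38 and -1.08. The non-muscle genes Myh10, Myh14, Myl6, Myl12a and Actn4 had 0.26, 0.11, -0.43, -0.15 and 0.06 and did not pass. Each of the calls of Tpm1, Tpm2, Tpm4, Actb, Myh9, Acta1 and Acta2 was lost when at least 1 of the 4 arrays was left out, with adjusted p up to 0.256, and Tpm3 had -0.22 when the median of its exon-level values was used. Without EB replicate 1 the differences were -0.60 for Acta1 and -0.73 for Tpm2, and without EB replicate 2 they were -2.16 for Acta1 and -0.42 for Acta2, while Acta2 had -1.74 without EB replicate 1. For the creatine kinases, muscle Ckm differed by -6.50 and brain-type Ckb by -1.67.

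Promoters of the sarcomere genes were read for the CArG box, the site that serum response factor (Srf) is known to bind in muscle genes. RefSeq promoters of build GRCm38.p6, 300 bases from 250 before to 50 after a start site, were found for 49 of the 59 genes. The CArG box, on either strand, was present in 9 of the 49, or 18.4%, against 1.63% of the 15614 tested genes with a promoter. A gene was counted if any of its promoters held the box, and how many promoters each gene has was not taken into account. The list was chosen with results of these data known, and a match of letters is not shown to be a bound site. The sites are printed to show the box and its surroundings in 6 of these genes, and its letters are in capitals in 30 bases of the gene's own strand:
Actc1, chr2:114052903-114052932, minus strand: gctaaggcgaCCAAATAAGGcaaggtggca
Acta1, chr8:123894829-123894858, minus strand: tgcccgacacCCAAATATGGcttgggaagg
Myl7, chr11:5898824-5898853, minus strand: ccattcctctCCTTATTTGGgcctctgggt
Myl3, chr9:110763583-110763612, plus strand: gagccaatgcCCTTTTATGGccctgtccct
Myl9, chr2:156775293-156775322, plus strand: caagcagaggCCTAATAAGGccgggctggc
Myom1, chr17:71019448-71019477, plus strand: gccttcctggCCATAAAAGGctggctgtgg
The remaining 3 genes with a box were Fhl2, Ldb3 and Nebl. All 9 genes were lower in EB, by -1.38 for Acta1 to -6.34 for Myl7. The boxes shown begin 47, 73, 61, 85, 161 and 99 bases before the start site, in the order of the lines. Other motifs were searched on both strands and counted by gene in the same way. TATAAA was in 24.5% of the 49 genes, against 13.6% of all, and GATAA in 38.8%, against 24.4%. CACNCCAC was in 12.2%, against 7.31%, CCAAT in 44.9%, against 41.7%, and CACGTG in 8.16%, against 9.5%. Srf itself was lower in EB by -1.17 (adjusted p = 0.0102), and its muscle partner Myocd had 5.66 and 5.35 in EB, against 9.24 and 9.01 in hearts.

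Calcium handling and excitation genes were lower in EB as well. Of 30 measured calcium handling genes 19 were lower (median -1.53). Pln, the phospholamban that restrains the calcium pump, had the largest fall of all tested genes, with 4.35 and 5.002 in EB, against 12.89 and 12.96 in hearts (-8.25 ± 0.24, adjusted p = 1.24e-09). Casq2, the calcium-storing calsequestrin, had 4.48 and 4.33 in EB and 11.60 and 11.39 in hearts. The pump gene Atp2a2 itself stayed at a high signal in EB, 10.60 and 10.64, against 12.87 in each heart array (-2.26 ± 0.18). Ryr2, the calcium release channel, differed by -4.91, the exchanger Slc8a1 by -6.00 and the L-type channel Cacna1c by -4.21. The pump so differed by less than Pln, Casq2, Ryr2, Slc8a1 and Cacna1c. Stim1, Orai1 and Itpr3, which serve calcium entry and release in many cell types, differed by 0.33, 0.05 and 0.53 and did not pass the test.

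Of 31 channel, gap junction and receptor genes 22 were lower in EB (median -2.01). Gja5, a gap junction protein of atria and the conduction system, had 3.55 and 5.47 in EB, against 9.66 and 9.39 in hearts. Gja1, the main gap junction protein of ventricular muscle and of many other cells, had 10.12 and 10.40 in EB, against 11.31 and 11.14, and its call was lost without EB replicate 1 or E17.5 replicate 1. Popdc2, a membrane protein of heart cells, differed by -5.67, and the inward rectifier gene Kcnj2 by -3.27. The pacemaker channel Hcn4 had low signals in both groups, 5.37 and 5.20 in EB and 6.12 and 6.32 in hearts (adjusted p = 0.0601). Gjc1, a gap junction protein of early heart and vessels, was the one called gene of this list that was higher in EB, by 0.76, and its call was lost without EB replicate 2 or E17.5 replicate 2.

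Natriuretic peptides and other genes of the fetal heart were lower in 20 of 25 cases (median -4.09). Nppa, the atrial natriuretic peptide, had 4.75 and 5.24 in EB, against 12.82 and 12.68 in hearts. Nppb had 3.79 and 5.73 in EB, against 9.63 and 9.17. Myoglobin (Mb) differed by -5.49 and Corin, the protease that activates natriuretic peptides, by -4.58. All 4 arrays kept the groups apart for these genes.

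Heart transcription factors differed less than the muscle genes they are known to control, and unevenly. Of 45 measured, 21 were lower, and the median difference was -0.53. Nkx2-5 had 7.21 and 7.01 in EB, against 9.41 and 9.48 in hearts (-2.33 ± 0.25, adjusted p = 2.32e-05), and Tbx5 had 4.52 and 4.62 in EB, against 8.11 and 7.43. For both, the EB arrays were alike and below both hearts. Gata4 had 8.19 and 7.09 in EB, against 9.36 and 9.42, and Tbx20 had 8.95 and 6.498, against 10.53 and 10.42, so here EB replicate 1 was the nearer one to the hearts. Isl1, a factor of the second heart field and other progenitors, was the one gene of this list called higher in EB, with 7.69 and 8.73, against 4.97 and 5.09 in hearts (3.18 ± 0.27, adjusted p = 3.5e-06). The early factors Hand1 and Tbx3 had 8.59 and 8.51 in EB replicate 1 but 6.17 and 6.08 in EB replicate 2, where hearts had 6.24 and 6.31 for Hand1 and 5.84 and 6.03 for Tbx3. The test did not call these 2 genes, and EB replicate 2 lay at the level of the hearts. Without EB replicate 1 the number of factors called higher was 6, and without EB replicate 2 it was 3.

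Genes of mitochondrial energy production were lower in EB. Of 77 genes of the citrate cycle and respiratory chain 73 were lower, with a median of -1.33, beside a median of 0.006 over all genes. Citrate synthase (Cs) had 10.69 and 10.43 in EB, against 11.88 and 11.75 in hearts. Idh3a, a subunit of the citrate cycle's isocitrate dehydrogenase, had 8.98 and 9.12, against 11.53 and 11.45. The largest differences belonged to cytochrome oxidase subunits that are known as the heart and muscle forms. Cox8b differed by -5.29, Cox6a2 by -4.94 and Cox7a1 by -4.43, while the general forms of the same subunits, Cox8a, Cox6a1 and Cox7a2, differed by -1.08, -0.67 and -1.37. The call of Cox6a1 was lost when any 1 of the 4 arrays was left out. The 4 genes of the list that did not pass were Atp5g2, Dld, Ndufb3 and Suclg2, all with negative differences from -0.95 to -0.20.

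Fatty acid genes were lower in 39 of 56 cases (median -1.26). Cd36, the fatty acid uptake receptor, had 4.12 and 6.01 in EB, against 11.09 and 10.80 in hearts. Ppargc1a, the coactivator known to drive mitochondrial genes, had 3.92 and 4.13, against 9.39 and 9.05. Cpt1a, which admits fatty acids to mitochondria, differed by -3.31 and Acadl, a dehydrogenase of their oxidation, by -3.11. The 4 genes called higher in EB were Cpt1c, Acsl4, Nrf1 and Tfam, by 1.36, 1.01, 0.91 and 0.73. Tfam, the mitochondrial DNA-binding factor, and Nrf1, a regulator of mitochondrial genes, were both called higher, and both calls were lost when the median of exon-level values was used. The call of Tfam was also lost with the replicate block, with quantile normalization and without EB replicate 2 or E17.5 replicate 2. The call of Acsl4 was lost when any 1 of the 4 arrays was left out.

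Glucose transporters and enzyme forms differed in both directions. Of 40 measured glycolysis and glucose transport genes, 5 were higher and 22 lower in EB (median -0.87). These shares of 12.5% and 55.0% stand beside 15.7% and 11.7% of all genes. Slc2a3, a high-affinity glucose transporter of embryonic and nerve cells, had 12.97 and 11.96 in EB, against 7.53 and 7.55 in hearts (4.92 ± 0.41, adjusted p = 2.92e-06). Slc2a1, the widespread transporter, was higher by 1.52, and Slc2a4, the insulin-responsive one of muscle, was lower by -1.56. Transketolase (Tkt), of the pentose phosphate pathway, was higher by 2.02, with EB arrays within 0.01 of each other. Muscle forms and others were lower: Pgam2 by -5.68, Pygm, the muscle glycogen phosphorylase, by -5.34 and Eno3 by -2.53, and, of forms not particular to muscle, Pfkp by -3.27, Pygl by -3.04 and Pygb by -2.48, beside the muscle form Pfkm by -2.01. Ldhb, the heart form of lactate dehydrogenase, had 8.17 and 8.16 in EB, against 10.83 and 10.70, while Ldha had 12.003 and 12.33, against 12.46 and 12.49, and did not pass the test (adjusted p = 0.27).

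Cholesterol and fatty acid synthesis genes were the list with the highest share of genes raised in EB, apart from short marker lists. Of 25 measured, 23 were higher and the median difference was 1.87. Cyp51, the sterol demethylase, had 9.51 and 9.21 in EB, against 6.48 and 6.32 in hearts (2.96 ± 0.21, adjusted p = 8.04e-07). Sqle, squalene epoxidase, had 9.69 and 9.33, against 6.98 and 6.96, and Hmgcs1, which makes the HMG-CoA of the pathway, had 11.59 and 11.17, against 9.30 and 9.18. Both EB arrays were above both hearts for each of these. Scd1, a fatty acid desaturase, had the largest difference of the list at 4.03, with 9.79 and 8.28 in EB. Insig1, a sensor protein that the pathway's own regulator switches on, was higher by 2.24, and Srebf2, that regulator, by 1.04. Srebf1 and Ebp had differences of 0.37 and 0.31 and did not pass. EB replicate 1 was the higher of the EB arrays by a median of 0.46 over the list.

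Promoters of these genes were read in the same way, for 20 of the 25. The CCAAT box, which nuclear factor Y is known to bind, was found on either strand in 18 of the 20, or 90%, against 41.7% of all tested genes with a promoter. CACGTG was in 20% of them, against 9.5%, and CACNCCAC, which resembles a sterol response element, in 10%, against 7.31%, while the TATAAA motif, the CArG box and the GATAA motif were in none of these windows. First CCAAT boxes (or ATTGG, the same box read on the other strand) of the 4 genes with the largest differences among those 18 are shown, with the box in capitals, because the same short box recurs at different distances:
Msmo1, chr8:64733724-64733748, minus strand: atccgcgcagCCAATgactggcgcc
Cyp51, chr5:4104712-4104736, minus strand: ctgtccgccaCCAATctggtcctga
Lss, chr10:76531533-76531557, plus strand: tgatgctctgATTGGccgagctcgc
Insig1, chr5:28071186-28071210, plus strand: ccctcctcccATTGGctccggcggc
These boxes begin 160, 29, 62 and 216 bases before the start site. Msmo1 holds 3 such boxes in its window and Hmgcs1 holds 4, while the other 3 genes shown hold 1 each. The match describes letters only, and binding was not measured.

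Pluripotency genes were higher in EB, though not all of them. Of 46 measured, 30 were higher and 1 was lower (median 1.81). Pou5f1 had 8.46 and 8.52 in EB, against 4.58 and 4.61 in hearts (3.89 ± 0.20, adjusted p = 5.57e-08). Nanog had 8.71 and 8.33, against 5.62 and 5.65, and Sox2 had 7.88 and 8.69, against 3.75 and 3.68. Dppa5a, an RNA-binding protein of pluripotent cells, had 10.42 and 10.36, against 4.85 and 4.86. The EB arrays were alike and well above both hearts for these factors. Otx2 and Fgf5, known from the primed, later pluripotent state, were higher by 3.67 and 1.495. Of genes known from the naive state, Zfp42 was higher by 2.96, while Klf4 and Esrrb had -0.70 and 0.63 and did not pass the test (adjusted p = 0.0824 and 0.124). The undifferentiated ES cell arrays of the same series had 11.7 or more for both Nanog and Pou5f1, given as a level only.

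Epithelial genes were higher in EB in 26 of 42 cases and lower in 5 (median 1.18). The lower ones are 11.9% of the list, beside 11.7% of all genes. Cdh1, E-cadherin, had 10.20 and 10.56 in EB, against 5.06 and 5.82 in hearts. Cldn6, a tight junction protein of embryonic epithelium, had 10.76 and 10.99, against 4.98 and 5.28 (5.74 ± 0.21, adjusted p = 6.46e-09). Epcam, a surface protein of epithelia and pluripotent cells, differed by 4.81, and the keratins Krt8 and Krt18 of simple epithelium by 4.59 and 4.82. Esrp1, which directs the epithelial pattern of splicing, had 8.27 and 8.51 in EB, against 4.39 and 4.64. The 5 genes of the list that were lower in EB included Dsp, Pkp2 and Perp, proteins of desmosomes that heart muscle cells also have, by -1.40, -0.85 and -1.48, and the keratins Krt7 and Krt14 by -0.97 and -0.81. Apart from Perp, each of these 5 calls was lost under at least 1 left-out array, and Dsp had -2.26 without EB replicate 1 and -0.53 without EB replicate 2.

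**Figure D3:**
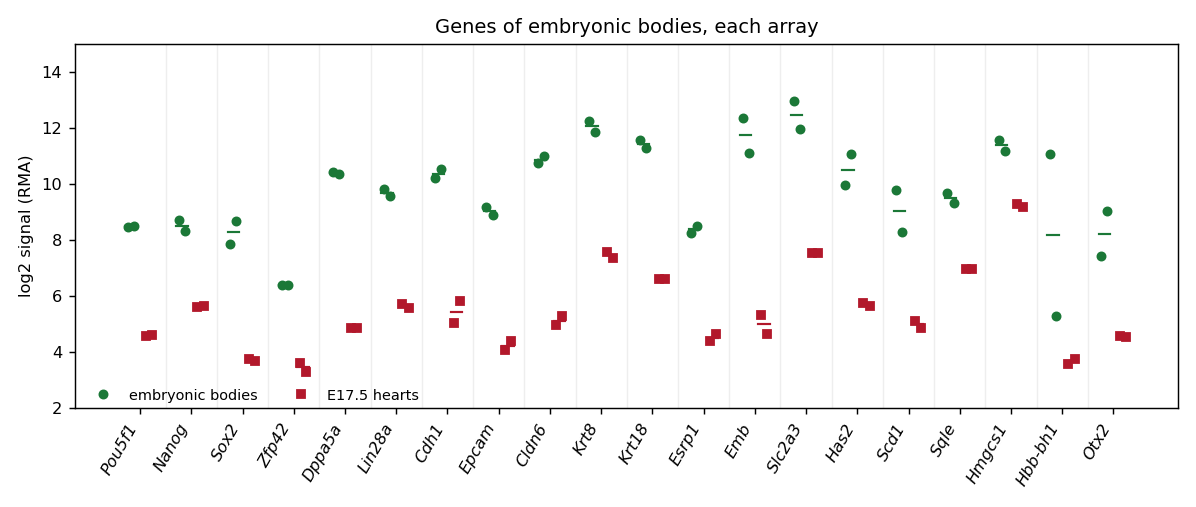
log2 signal of 20 genes in each array, EB as circles on the left of each gene and E17.5 hearts as squares on the right, with group means as bars. Both EB arrays lie above both heart arrays for every gene shown, and the EB arrays lie furthest apart for Hbb-bh1, at 11.07 and 5.29.

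The largest rise of all was that of Emb, embigin, a glycoprotein of early embryonic cells that escorts monocarboxylate transporters. It had 12.35 and 11.13 in EB, against 5.34 and 4.66 in hearts (6.74 ± 0.38, adjusted p = 1.41e-07). Has2, which makes the matrix sugar hyaluronan, had 9.96 and 11.06 in EB, against 5.77 and 5.63. Trh, the thyrotropin-releasing hormone gene, had 9.73 and 11.10, against 4.87 and 5.35. Fndc3c1 differed by 5.16, Cpm, a membrane carboxypeptidase, by 4.51 and Zfp980, a zinc finger gene, by 4.18. All of these were chosen among called genes whose groups do not overlap, so both EB arrays lay above both hearts by that choice.

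Of 47 primitive streak and mesoderm genes 8 were higher in EB, or 17%, beside 15.7% of all genes, and 9 were lower, or 19.1%, beside 11.7% (median 0.30). Cyp26a1, which degrades retinoic acid, had 7.65 and 9.36 in EB, against 4.65 and 5.14 in hearts, and Eomes, a factor of the primitive streak, had 6.25 and 6.27, against 4.08 and 4.35. Twist1, a factor of mesoderm and mesenchyme, was higher by 1.87. Foxf1, a factor of splanchnic mesoderm, had 10.06 in EB replicate 1 but 6.21 in replicate 2, against 5.57 and 6.11 in hearts, and did not pass (adjusted p = 0.0539). The count of called higher genes was 16 without EB replicate 2 and 3 without E17.5 replicate 1. Among 50 neural and ectoderm genes 11 were higher, or 22%, and 4 lower, or 8%. Sox11 was higher by 2.61 and Zic2 by 2.49, while Sox1 and Pax6, which mark neural progenitors, had -0.14 and 0.52 and did not pass, though Pax6 was called at 0.88 without EB replicate 1. Ncam1, made by heart muscle as well as nerve cells, was lower by -2.74.

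The EB arrays also differed for endoderm genes, with replicate 1 the higher one. Of 43 yolk sac, endoderm and liver genes 11 were higher and 11 lower (median 0.12). Each is 25.6% of the list, beside 15.7% of all genes higher and 11.7% lower. Ttr, the transthyretin of yolk sac and liver, had 10.44 in EB replicate 1 and 5.87 in replicate 2, against 4.49 and 5.29 in hearts. Spink1, a protease inhibitor of the gut and its early endoderm, had 8.23 and 4.66, against 3.03 and 3.06. For Ttr, EB replicate 2 lay close to the hearts, and the call was lost without either heart array (adjusted p up to 0.138). Without EB replicate 1 the differences were 0.98 for Ttr and 1.61 for Spink1, and without EB replicate 2 they were 5.55 and 5.19. The endoderm factors Foxa2 and Sox17 were each higher by 0.95, with calls lost under left-out arrays (0.55 and 0.56 without EB replicate 1), and Foxa2 had -0.17 by the median of its exon-level values. Afp and Alb, made by the liver, had differences of 0.64 and -0.13 and did not pass. Over the list, EB replicate 1 exceeded replicate 2 by more than 1 for 14 genes. The count of genes called higher was 6 without EB replicate 1, 3 without E17.5 replicate 1 and 6 without E17.5 replicate 2, and the count called lower was 7 without EB replicate 2 or E17.5 replicate 2.

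Embryonic globins were the sharpest case. Hbb-bh1, an embryonic beta-globin, had 11.07 in EB replicate 1 and 5.29 in replicate 2, against 3.58 and 3.77 in hearts (4.51 ± 1.19, adjusted p = 0.013), and its call was lost without either heart array and when the 4 arrays were fitted alone. Hba-x, the embryonic alpha-like globin, had 11.32 and 6.19 in EB, against 6.40 and 7.68, and Hbb-y, also embryonic, had 11.32 and 5.88, against 7.13 and 8.62. The EB arrays thus lay on both sides of the hearts for Hba-x and Hbb-y, and neither was called (adjusted p = 0.299 and 0.742). Alas2, the heme synthesis enzyme of red cells, had 8.71 and 5.85 in EB, against 10.49 and 11.61 in hearts (adjusted p = 0.00138). Without EB replicate 1 the difference of Hbb-bh1 was 1.61, and without EB replicate 2 it was 7.40, while that of Alas2 was -2.34 without EB replicate 2. Hba-x was called at 4.28 and Hbb-y at 3.44 without EB replicate 2, and Hbb-y at -1.99 without EB replicate 1. Slc4a1, the anion exchanger of the red cell membrane, was also lower, by -2.72. Of 31 erythroid genes 4 were higher and 8 lower (median -0.08). These shares of 12.9% and 25.8% stand beside 15.7% and 11.7% of all genes. EB replicate 1 exceeded replicate 2 by more than 1 for 16 of the 31, and the count of genes called higher was 10 without EB replicate 2 and 1 without E17.5 replicate 1. The globin genes of fetal and adult red cells were not measured as single genes here.

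Matrix and fibroblast genes were lower in EB in 47 of 81 cases (median -1.03). Dcn, the proteoglycan decorin, had 6.60 and 4.61 in EB, against 11.06 and 11.23 in hearts. Col1a1 had 8.34 and 6.54, against 11.14 and 11.43, and Dpt, dermatopontin, had 3.46 and 3.76, against 8.87 and 9.17. Replicate 1 was the higher EB array by more than 1 for 7 of the 9 fibroblast markers, and both EB arrays stayed below both hearts for 8 of them. Eln, elastin, differed by -4.14 and Bgn, biglycan, by -4.45. Fn1 and Vcan, fibronectin and versican, which early mesenchyme also makes, had 0.14 and 0.45 and did not pass. The 5 genes called higher in EB were Has2, Hapln1, Lama1, Mmp9 and Col18a1, of which Col18a1 lost its call without EB replicate 2 or either heart array. Hapln1, which links hyaluronan to other matrix, was higher by 2.41 (1.49 without EB replicate 2), and Lama1, the laminin chain of the earliest basement membranes, by 2.11, beside -3.63 for Lama2 and -3.65 for Lama4.

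**Figure D4:**
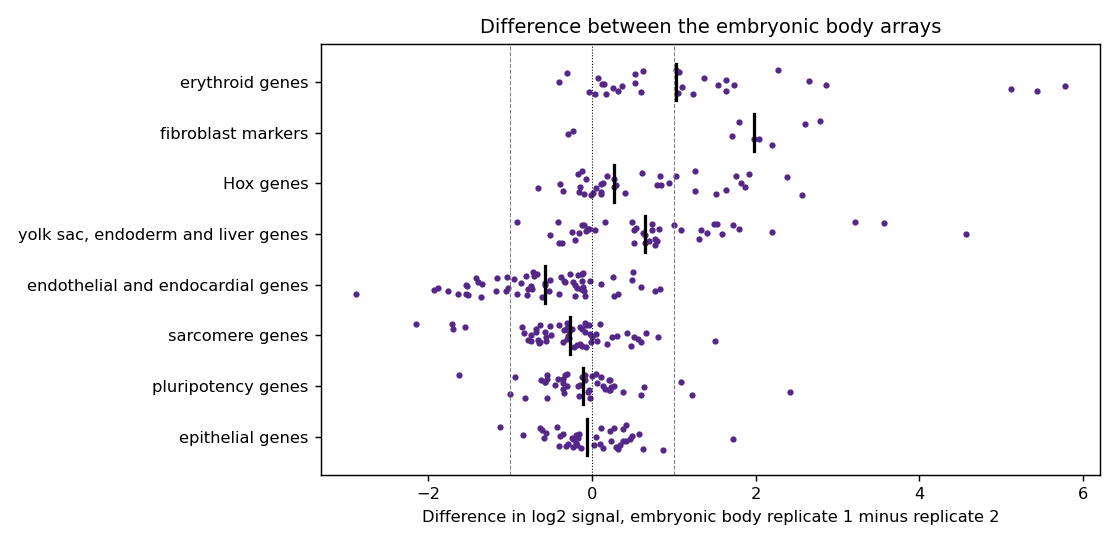
Difference between the EB arrays, replicate 1 minus replicate 2, in log2 signal for each measured gene of 8 lists (points), with the median as a black bar and dashed lines at -1 and 1. Erythroid genes and fibroblast markers lie toward replicate 1 (medians 1.03 and 1.99), endothelial genes toward replicate 2 (median -0.58), and pluripotency and epithelial genes near 0 (medians -0.11 and -0.06).

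Vascular genes were lower in EB but not at the bottom of the signals. Of 61 endothelial and endocardial genes 42 were lower (median -1.17). Cdh5, the endothelial cadherin, had 6.87 and 7.82 in EB, against 9.17 and 8.77 in hearts, and Pecam1 had 6.63 and 6.31, against 9.05 and 8.91. Kdr, a receptor for vascular growth factor that early mesoderm also carries, had 7.91 and 8.71 in EB, against 9.19 and 9.06, and its call was lost without EB replicate 1, where it had -0.41, or either heart array. Endothelial genes of working fetal capillaries differed by more: Fabp4 by -4.18 and Aqp1 by -3.56. Here EB replicate 2 was the higher one, by more than 1 for 18 genes, as with Emcn at 5.14 and 8.02 in EB, against 9.33 and 9.27 (differences of -1.29 without EB replicate 1 and -4.16 without replicate 2). Smooth muscle genes were lower in 19 of 32 cases (median -1.05), among them Cnn1 by -3.10, while Tagln had 0.33 and did not pass. Epicardial genes were lower in 12 of 19 cases, such as Upk3b by -3.65 and Wt1 by -1.51. The 4 that were higher were Bnc2 and the keratins Krt8, Krt18 and Krt19, which that list shares with simple epithelium, and Krt19 lost its call without EB replicate 1, where it had 0.80, or either heart array. Macrophage and immune genes were lower in 30 of 55 cases, such as Lyz2, with 3.92 and 4.26 in EB, against 7.61 and 7.47. With only genes at or above the median level, that count was 17.

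Growth and chromatin genes were moderately higher in EB. Of 75 replication and cell cycle genes 35 were higher and 7 lower (median 0.62). These shares of 46.7% and 9.33% stand beside 15.7% and 11.7% of all genes. Among those higher were the replication genes Orc1 by 2.51, Mcm10 by 1.85 and Mcm5 by 1.76, the transcription factor Mybl2 by 1.79 and the cyclin Ccnf by 1.64. Mki67, a proliferation marker, had 9.28 and 9.33 in EB, against 9.31 and 9.06 in hearts, and did not pass. The genes lower in EB included the cell cycle inhibitors Cdkn1c and Cdkn2c, by -3.33 and -2.39. They also included the phosphatase Cdc25b and the cyclin Ccnd2. Under the alternatives Cdc25b had differences from -2.01 to -1.06, and Ccnd2 from -1.63 to -0.64. The call of Ccnd2 was lost without EB replicate 1 or either heart array, while Cdc25b kept its call. Of 57 chromatin genes 25 were higher and 8 lower (median 0.52), and the count of higher ones was 15 without E17.5 replicate 2. The chromatin genes called higher and lower are 43.9% and 14.0% of their list, beside 15.7% and 11.7% of all genes. Dnmt3b, a DNA methyltransferase of the early embryo, had 8.26 and 7.92 in EB, against 5.55 and 5.74. The muscle histone methyltransferase Smyd1 was lower by -4.51 and the deacetylase Hdac9 by -2.96.

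Of 38 measured fetal growth and imprinted genes, 15 were higher in EB and 6 lower (median 0.28). These shares of 39.5% and 15.8% stand beside 15.7% and 11.7% of all genes. Lin28a, which blocks the processing of let-7 microRNAs, had 9.81 and 9.59 in EB, against 5.72 and 5.58 in hearts (4.05 ± 0.18, adjusted p = 2.78e-08), and Lin28b was higher by 3.07. Hmga2 and Igf2bp1, both known targets of let-7, were higher by 3.17 and 2.79. Among imprinted genes, Peg10 was higher by 3.60 and Nnat by 3.59, Zim1 was lower by -3.36, and Igf2 had 11.89 and 11.60 in EB, against 11.59 and 11.76. Igf2 was thus at a high signal in all 4 arrays and did not pass the test (adjusted p = 0.941).

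Signalling genes differed in both directions, with 22 of 100 Wnt, Fgf, Bmp, Nodal and Notch pathway genes higher and 21 lower (median 0.14). These shares of 22% and 21% stand beside 15.7% and 11.7% of all genes. Ligands, receptors and antagonists were among the higher ones: the ligand Nodal by 1.82, the Wnt receptor Fzd7 by 2.72, and the secreted Wnt antagonists Frzb and Dkk1 by 2.49 and 2.05. Bmp4, a ligand of mesoderm formation, had 9.47 and 7.75 in EB, against 6.82 and 7.05 in hearts (differences of 0.81 without EB replicate 1 and 2.53 without EB replicate 2). The lower ones included the Wnt inhibitor Wif1 by -2.21, the Notch target Hey2 of ventricular muscle by -2.37, and Bmp10, a ligand made by heart muscle, by -4.13. The calls of Bmp4 and Bmp10 were lost without E17.5 replicate 1, and that of Bmp10 without any other array as well. Without E17.5 replicate 1 both counts were 12, and without E17.5 replicate 2 the count of lower genes was 11. Of 37 Hox genes limma called 0, with 5 higher and 1 lower at an unadjusted p under 0.05. Hoxc8, for example, had 7.38 in EB replicate 1 and 4.81 in replicate 2, against 4.501 and 4.998 in hearts, and 11 Hox genes were higher by more than 1 in EB replicate 1 than in replicate 2. When EB replicate 2 was left out, 14 Hox genes were called higher.

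Families were also taken by name after the data were seen, and some of them leaned one way. Of 51 small nucleolar RNA genes 30 were higher in EB, or 58.8%, beside 15.7% of all genes. Snora73b, for example, had 9.54 and 9.63 in EB, against 7.13 and 7.11 in hearts. Of 67 cytosolic ribosomal protein genes 33 were higher, or 49.3% (median 0.60), and of 40 proteasome genes 15 were, or 37.5%. Other families did not lean toward EB. Of 77 mitochondrial ribosomal protein genes 4 were higher and 6 lower (median -0.07). MicroRNA and histone genes were higher in 16.8% and 16.9% of cases, near the share of all genes. Protocadherin and olfactory receptor genes were higher in 4.55% and 0.0974%. Zinc finger genes named Zfp with a number were higher in 92 of 317 cases, or 29%, beside 15.7% of all genes. Zfp600 had 5.67 and 6.32 in EB, against 2.05 and 1.94.

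Of the genes of the sex chromosomes, Uty, Eif2s3y and Kdm5d of the Y chromosome were lower in EB. Uty had 3.31 and 3.16 in EB, against 7.94 and 7.61 in hearts, Eif2s3y had 2.99 in both EB arrays, against 6.87 and 7.60, and Kdm5d had 3.61 and 3.83, against 6.62 and 6.53. Xist, the RNA of an inactive X chromosome, was low in both groups, at 3.44 and 3.94 in EB and 3.32 and 3.41 in hearts (adjusted p = 0.341). The X-linked partners Kdm6a and Eif2s3x were higher in EB by 0.99 and 0.74, and both calls were lost under several alternatives. The other Y-linked genes Usp9y, Zfy1 and Zfy2 had differences of -0.19, -0.15 and 0.50 at signals of 3.30 or less, and the other X-linked genes Kdm5c and Ddx3x had 0.31 and 0.73, and none of these 5 passed the test. The part of the Y-linked difference in the other results was not tested.

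MicroRNA genes on this array report precursor or host transcripts, not the mature RNAs. Of 57 measured genes of heart and stem cell microRNAs 15 were higher in EB and 8 lower (median 0.01). The higher ones are 26.3% of the list, beside 15.7% of all genes. Most genes of the list had low signals, so that with only genes at or above the median level the counts were 6 and 2. Mature sequences from RefSeq on build GRCm38.p6 are shown for 13 of the called genes, picked to show seeds, the bases 2 to 8 that pair with targets. The called genes Mir127, Mir136, Mir200b, Mir541, Mir302a, Mir302c, Mir1a-1 and Mir335 also have sequences in that table that are not shown, so shared seeds below reflect this choice. Seeds are in capitals. Genes with higher signal in EB:
miR-17-5p: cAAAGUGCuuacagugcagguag
miR-20a-5p: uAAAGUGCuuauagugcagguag
miR-106a-5p: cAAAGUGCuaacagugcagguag
miR-302b-3p: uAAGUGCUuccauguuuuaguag
miR-302d-3p: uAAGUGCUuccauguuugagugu
miR-18a-5p: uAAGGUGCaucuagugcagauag
miR-19a-3p: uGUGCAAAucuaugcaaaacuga
miR-19b-3p: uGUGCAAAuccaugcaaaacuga
miR-363-3p: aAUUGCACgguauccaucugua
Genes with lower signal in EB:
let-7c-5p: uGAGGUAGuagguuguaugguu
miR-99a-5p: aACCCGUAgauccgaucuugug
miR-208a-3p: aUAAGACGagcaaaaagcuugu
miR-490-3p: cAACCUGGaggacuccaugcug
The first 3 share the seed AAAGUGC, miR-302b and miR-302d share AAGUGCU, which is the same run moved by a base, and miR-19a and miR-19b share GUGCAAA.

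The genes Mir17, Mir18, Mir19a, Mir20a and Mir19b-1 lie together on chromosome 14 and are known to be cut from 1 transcript. Mir19a had 6.69 and 7.33 in EB, against 4.27 and 4.11 in hearts (2.82 ± 0.23, adjusted p = 2.71e-06). Mir20a had 7.58 and 8.25, against 5.36 and 5.11, and Mir17, Mir18 and Mir19b-1 differed by 1.72, 2.31 and 2.66. All 5 genes of the cluster were higher in EB, and as parts of 1 transcript they are not independent measurements. Mir106a and Mir363, of a related cluster on the X chromosome, differed by 1.30 and 1.67. Mir20b and Mir367 were measured too and were not called, with differences from 0.55 to 0.90 and from 0.26 to 0.74 under the alternatives. The Mir302 genes of chromosome 3, a cluster known from pluripotent cells, were higher by 0.83 to 1.69 at signals of 4.22 or less. The calls of Mir302b and Mir302d were lost under left-out arrays.

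The 8 microRNA genes lower in EB are 14% of the list, beside 11.7% of all genes. Mir208a, which lies in an intron of Myh6, had 3.92 and 4.06 in EB, against 6.77 and 5.77 in hearts, and Mir145a, a smooth muscle microRNA, had 4.77 and 3.93, against 6.44 in each heart. Mirlet7c-1 and Mir99a, neighbours on chromosome 16, differed by -2.31 and -2.30. The let-7 genes Mirlet7e and Mirlet7g were not called, with differences from -0.11 to 0.09 and from 0.40 to 0.69 under the alternatives. Mir125b-2 was not called either, with differences from -0.28 to 0.05. Mir1a-1, of heart muscle, was lower by -1.72. The heart muscle genes Mir133a-2 and Mir499 had -0.65 and -0.48, and Mir143 of smooth muscle and Mir126a of endothelium had -0.53 and -0.51. None of these 4 passed. With 2.25 and 2.39 in EB, Mirlet7c-1 lay at the bottom of the signals there. The genes Mir382 and Mir377, picked after values were seen, were higher in EB and higher in replicate 1 than in replicate 2. Mir382 had 7.95 and 6.68 in EB, against 5.37 and 5.06, and Mir377 had 6.75 and 5.53, against 4.06 and 4.44.

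Splicing regulators changed in both directions, with 27.3% called higher and 16.7% lower, beside 15.7% and 11.7% of all genes. Of 66 measured, 18 were higher and 11 lower (median 0.43), with 10 higher without EB replicate 2 and 8 without E17.5 replicate 2. Rbm20, the regulator of titin splicing, had 6.38 and 6.18 in EB, against 9.68 and 9.43 in hearts, and Rbm24, another muscle regulator, had 6.81 and 7.94, against 10.77 and 10.64. Mbnl1 and Mbnl2, which favour exons of mature tissue, were lower by -1.30 and -1.43. Ptbp1, which represses muscle and nerve exons, was higher by 1.45, beside the epithelial regulators Esrp1 and Esrp2 by 3.87 and 1.26. Celf2 was lower by -1.66, and Rbfox2 had -0.38 and did not pass.

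Exon usage was read as a splicing index. It subtracts the gene's log2 signal from that of each probe set, and is known to move when an exon is used more or less often. Of 92729 probe sets in 7842 genes kept by level, 262 were higher in index in EB, which is 0.283%, and 479 were lower, which is 0.517%, at an adjusted p under 0.05 and a change of at least 1. A probe set was kept if it reached the median probe set level, 6.67, in at least 1 group. Its signal in the other group could thus be low. The EB mean was below 6.67 for 222 of the 479 lower calls. The E17.5 mean was below it for 105 of the 262 higher calls. Where a probe set has a low signal, the index follows the level of its gene, so genes of like level (at most 1 apart) were read apart. In these genes 103 probe sets were higher and 305 lower. A second index, taken against the gene's remaining probe sets (their median), and the agreement of both gene levels were then asked for as well, which was decided with the data in view. This left 207 probe sets in 188 genes, 53 higher and 154 lower in EB. For 98 of the calls in 16 genes the deposited gene level and the median of the probe sets differed by more than 1. In Trdn, triadin, for instance, the gene level differed by -0.82 while the median of the probe sets differed by -3.49, and such genes are not read further here. The exon counts depend on single arrays: 44 probe sets were higher and 175 lower without EB replicate 2, 331 and 1234 without EB replicate 1, 760 and 344 without E17.5 replicate 1, and 67 and 127 without E17.5 replicate 2. When the 4 arrays were fitted alone, limma called 0 probe sets, with 10448 at an unadjusted p under 0.05 and a lowest adjusted p of 0.0536, so none of the probe sets below was called in that fit.

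Some genes of even level held a probe set with a large change. In Capzb, a subunit of the protein that caps actin filaments, probe set 10509631 had 5.25 and 6.03 in EB, against 10.59 and 10.23 in E17.5 hearts, while the gene had means of 10.00 in EB and 9.94 in hearts (index -4.83 ± 0.39, adjusted p = 0.00198). It was the only called one of 12 probe sets of the gene. In Pkm, pyruvate kinase, probe set 10585938 had 7.88 and 8.47 in EB, against 11.91 and 11.68 (index -4.01 ± 0.20, adjusted p = 0.000397). Pkm is known for a pair of exons used in turn, but positions of probe sets were not used here, so the exon is not named. In Ppfibp1, a liprin scaffold protein, probe set 10542821 had 5.02 and 4.47 in EB, against 10.40 and 10.31 (index -5.83 ± 0.30), and in Ktn1, kinectin, probe set 10414395 differed in index by -4.18, a call that was lost without EB replicate 2 or E17.5 replicate 2. All 4 genes differed by less than 1 as a whole. In Ppfibp1 a further probe set, 10542799, was called with an index of -3.03, at means of 5.45 in EB and 8.26 in hearts. In Pkm probe set 10585937 had means of 11.74 in EB and 12.88 in hearts and was not called.

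A list of alternatively spliced heart genes had 96 genes with kept probe sets. Of these, 33 had a called probe set, 29 of them by both indices, while 6.72% of all genes kept had one. Probe sets of the list were called in 65 of 2229 cases, or 2.92%, beside 0.799% of all probe sets. That share also moves with gene level: over all genes it was 0.554% in genes of like level and 1.75% in the others, and the 65 include probe sets of Trdn. In Tpm1 probe set 10594669 had 10.39 and 10.19 in EB, against 5.95 and 6.73 in hearts, opposite to the gene, which was lower in EB (index 4.75 ± 0.71, adjusted p = 0.0238, lost with any 1 array left out). In Itga6, an integrin chain, probe set 10472844 had 3.65 and 3.76 in EB, against 9.65 and 9.32, and in Palld, palladin, probe set 10578856 had 2.42 and 3.69, against 10.60 and 10.05. Their genes were also lower in EB, but by -1.23 and -1.66 only. In Tnnt2 probe set 10350174 had 4.48 and 5.02 in EB, against 6.99 and 6.42, so its rise in index (3.86) is a smaller fall than that of the gene, which differed by -5.81. In Lmo7, by contrast, probe set 10416804 had 8.49 and 8.99 in EB, against 7.67 and 7.10, in a gene lower by -3.74, and the call was lost without EB replicate 2 or E17.5 replicate 2.

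**Figure D5:**
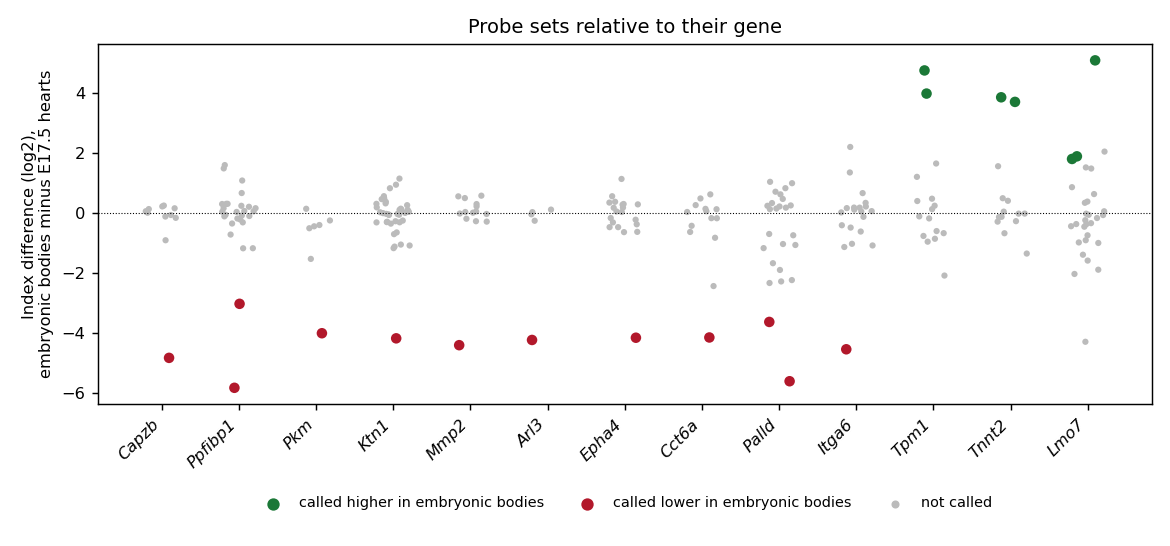
Difference in splicing index, EB minus E17.5 hearts, of every kept probe set (points) of 13 genes, with called probe sets larger and coloured. In Capzb, Pkm, Ktn1, Mmp2, Arl3, Epha4, Cct6a and Itga6 a single probe set is called, while Tpm1, Tnnt2 and Lmo7 have called probe sets with a higher index.

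Outside that list, the largest called index changes in genes of like level that met all conditions, apart from Ppfibp1, were in varied genes. In Kif5b, a kinesin motor, probe set 10457282 had 2.25 and 2.34 in EB, against 8.55 and 8.61 in hearts (index -6.28). In Slf1, a protein of DNA repair, probe set 10410753 had 1.75 and 1.96, against 7.62 and 6.64. Both were at the bottom of the signals in EB, and both calls were lost without EB replicate 2 or E17.5 replicate 2, that of Kif5b also without E17.5 replicate 1. In Wdr3 probe set 10500586 had 3.65 and 1.89 in EB, against 7.43 and 7.20, and in Sacm1l, a lipid phosphatase, probe set 10590602 had 3.96 and 4.40, against 9.49 and 9.45, with both calls lost without E17.5 replicate 2. In the opposite direction, probe set 10378599 of the spliceosome gene Prpf8 had 8.24 and 8.68 in EB, against 3.03 and 2.82. Probe set 10374804 of Pnpt1, an RNA-degrading enzyme, had 7.08 and 8.40 in EB, against 3.32 and 1.44. The heart signals of both, like the EB signals of Wdr3 and Sacm1l, lay below the median probe set level of 6.67. The calls of Prpf8 and Pnpt1 were lost without EB replicate 2 or E17.5 replicate 2. Of 4 smaller changes, picked after values were seen, none lost its call with 1 array left out. Probe set 10573936 of Mmp2, a matrix metalloproteinase, had 5.59 and 4.95 in EB, against 9.37 and 9.41. Probe set 10468236 of Arl3, a small GTPase of cilia, had 4.86 and 4.69, against 9.80 and 8.80, and probe set 10526081 of Cct6a, a chaperonin subunit, had 7.34 and 7.04, against 10.64 and 10.58. In Epha4, a receptor of ephrins, probe set 10355896 had 6.06 and 4.40, against 8.78 and 8.53.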

How the data were processed

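The deposited files hold log2 signals of Affymetrix mouse gene arrays, 1 gene-level and 1 exon-level set for each of 12 samples. RMA and Affymetrix Power Tools are named in the submitters' processing notes for the log2 values the authors deposited, with versions not given in the sources used here. No counts exist for arrays, so precision is limited by how many arrays there were, and signals were not tested against background.

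The log2 values were used as deposited. Each gene was taken from its transcript cluster with the highest mean, and clusters with several symbols were left out. Differences came from limma 3.58.1 (R 4.3.3), whose lmFit and eBayes were run on 6 group means of all 12 arrays, with Benjamini-Hochberg adjustment over all 19920 genes. The splicing index (probe set minus gene) was fitted in the same way for genes with at least 4 probe sets, where the gene was at or above the median level in both groups and the probe set in at least 1. The fits were tested on simulated data. No probe positions were used. Promoter and microRNA sequences came from RefSeq tables of build GRCm38.p6.

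The gene lists and the comparison were chosen with earlier results of these data known. Genes named were the 15 largest rises and falls among called genes whose groups do not overlap, per list its first 3 entries and up to 6 called members with the largest difference in each direction, and all of the isoform pair, sex chromosome and microRNA lists. Probe sets named were the largest called ones, 12 in genes of like level, 6 in other genes and up to 10 in alternatively spliced heart genes, and those of Mmp2, Arl3, Cct6a and Epha4 were picked after their values were seen. The following were named after their values were seen: Actn3, Myom3, Neb, Trim54, Srf, Fhl2, Nebl, Cacna1c, Stim1, Orai1, Itpr3, Kcnj2, Hcn4, Mb, Tbx20, Hand1, Tbx3, Atp5g2, Dld, Ndufb3, Suclg2, Acadl, Insig1, Srebf2, Srebf1, Ebp, Fgf5, Klf4, Esrrb, Foxf1, Fn1, Vcan, Lama2, Lama4, Igf2bp1, Hoxc8, Snora73b, Zfp600, Mir382, Mir377 and Mbnl1. Alternatives were quantile normalization, a level filter, an intensity trend, the 4 arrays alone, other gene summaries, a replicate block, other index filters, diffSplice and each array left out.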

Additional observations from a re-analysis of the deposited data

How the results depend on the processing

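Gene counts were 3120 higher and 2329 lower in EB. With 1 array left out they ran from 1844 to 2493 higher and from 1659 to 2003 lower. Of 333 called genes among those named by rule, 268 were called under every alternative run and 65 lost their call under at least 1. The signs of Tpm3 (-0.22, adjusted p = 0.607) and Foxa2 (-0.17, adjusted p = 0.73) turned with limma on the median of exon-level values, and the cause was not tested. Probe set counts depended far more on the settings, and the cause was not tested. They were 698 higher and 834 lower with no level filter, 137 and 313 with a filter at the 70th percentile, 1040 and 1087 with diffSplice, and 44 to 760 and 127 to 1234 with 1 array left out. In genes of like level they were 155 higher with no level filter, 708 higher and 706 lower with diffSplice, 7 to 521 and 98 to 866 with 1 array left out, and 198 lower against the median of the other probe sets. With both indices, an alternative chosen after seeing the data, they were 142 and 271, and 53 and 159 in genes of like level. With only the 4 arrays, limma called 0 probe sets in either direction, with 10448 at an unadjusted p under 0.05, while diffSplice over all arrays made the calls above. The difference of replicate 1 minus 2 in EB did not follow that in E17.5 hearts (r = 0.005 over genes). That covers only these 2 groups and cannot show whether replicate numbers pair samples. With the replicate block limma called 2993 genes higher and 2258 lower, and 178 and 341 probe sets, 69 and 220 of them in genes of like level.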
